A study of Mus musculus with 6 samples.

Results

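Undifferentiated mouse embryonic stem cells (ESC) labelled Oct1_cKO, a knockout of Oct1, were set against ESC labelled Parental. Each genotype was represented by 1 droplet single-cell RNA library. Barcodes with transcripts of 1000 or more genes, and with no more than 10% of their UMIs from mitochondrial genes, were taken as cells. A UMI (unique molecular identifier) counts 1 captured transcript. That left 530 Oct1_cKO and 1396 Parental cells, 1926 of the 7096 cells of the series. The remaining cells came from day 3 and day 6 of differentiation towards mesoderm, with 1 library for each genotype and day. The labels give no strain, sex, passage or medium for the undifferentiated cells. They do not say how many clones the Oct1_cKO cells came from, which Cre was used or which exons were removed. The design text calls the ESC that were plated for differentiation depleted, without saying of what. Cells were trypsinised, and the libraries were made with a 10x Genomics kit that tags the 5′ end of transcripts.

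Oct1, encoded by Pou2f1, is a widely expressed transcription factor of the POU family. It binds the octamer, a short DNA element that is also recognised by its pluripotency relative Oct4, encoded by Pou5f1. ESC do not need Oct1 to self-renew, whereas their differentiation is impaired without it. By the title of the series, the question was how Oct1 acts with the Smad factors, the nuclear mediators of BMP and TGF-beta signals, when mesoderm is specified. The undifferentiated cells show how the libraries of the genotypes differed before that step began.

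The libraries held 41665721 UMIs in Oct1_cKO and 81932435 UMIs in Parental. The kept cells had medians of 70990.5 UMIs and 6976.5 genes in Oct1_cKO, against 51732.5 UMIs and 6181 genes in Parental. The median mitochondrial share was 6.11% in Oct1_cKO and 5.34% in Parental cells. The ESC libraries shared 0 cell barcodes with each other. UMIs were summed over the cells of a library and divided by the library's sum, on the scale of CPM, the count in each 1000000 UMIs. With 1 library per genotype there is no replicate check and no p-value. The 95% intervals given in brackets cover counting error only, so a difference here is a difference between these libraries.

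At a common depth of 10000 UMIs per cell, 98.1% (96.5 to 99.1) of Oct1_cKO and 99.1% (98.4 to 99.6) of the other Parental cells, those without the fibroblast mark described next, held at least 3 of the 7 ESC markers Pou5f1, Sox2, Nanog, Zfp42, Esrrb, Dppa5a and Utf1. Both libraries thus carried the markers of their label. Cells were called fibroblast-marked when they held UMIs of 3 or more of Col1a1, Col1a2, Col3a1, Mgp, Bgn and Lox, genes of collagen and other matrix. There were 2 such cells in Oct1_cKO (0.377%, 0.0457 to 1.36) and 119 in Parental (8.52%, 7.11 to 10.1). Of the unmarked cells, 499 in Oct1_cKO and 854 in Parental held none of the 6 genes, and 2 in Oct1_cKO and 74 in Parental held 2. Only 14.4% (8.30 to 22.7) of the marked Parental cells held at least 3 ESC markers at the common depth. The main comparison below leaves the marked cells out, which left 528 Oct1_cKO and 1277 Parental cells.

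The Parental cells also fell into sets that differed in the share of UMIs from whole chromosomes. Each cell with at least 20000 UMIs was given a score on the log2 scale, the mean relative share of chromosomes 1, 6 and 8 minus that of chromosome 11, with the median Oct1_cKO cell set to 0. Chromosomes and limits were chosen after the values had been seen. Of 458 Oct1_cKO cells, 13 (2.84%) lay above 0.25, 433 (94.5%) between the limits and 12 (2.62%) below. Of 1098 Parental cells, 322 (29.3%) lay above 0.25, 264 (24.0%) between the limits and 512 (46.6%) below. In the 322 Parental cells, the median share was higher than in the median Oct1_cKO cell by 0.51 log2 units for chromosome 1, 0.45 for chromosome 6 and 0.58 for chromosome 8. In the 512 cells it was higher by 0.53 for chromosome 11 and by 0.21 for chromosome 16. In the 264 cells between the limits, chromosomes 1, 6, 8 and 11 lay within 0.11 of the Oct1_cKO median cell. The score was built from these chromosomes, so their closeness was partly set by the choice of cells. Other chromosomes were not all matched in the 264 cells. The median was −0.12 for chromosome 2 and −0.10 for chromosome 12. The lower quartile was −0.34 for chromosome 2 and −0.25 for chromosomes 4 and 12. The score does not show how cells vary on chromosomes outside it, and there the wider spread was not always in Parental. The standard deviation of the log2 share for chromosome 5 was 0.29 in Oct1_cKO and 0.20 in Parental cells. For chromosome X it was 0.35 in Oct1_cKO and 0.21 in Parental, and for chromosome 16 it was 0.13 in Oct1_cKO and 0.26 in Parental. The cells near a limit, within 0.05 of it, numbered 19 in Oct1_cKO and 62 in Parental. Their DNA was not measured. Values within the cells between the limits, called cells of neither chromosome group, are given below beside named genes and lists.

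**Figure D1:**
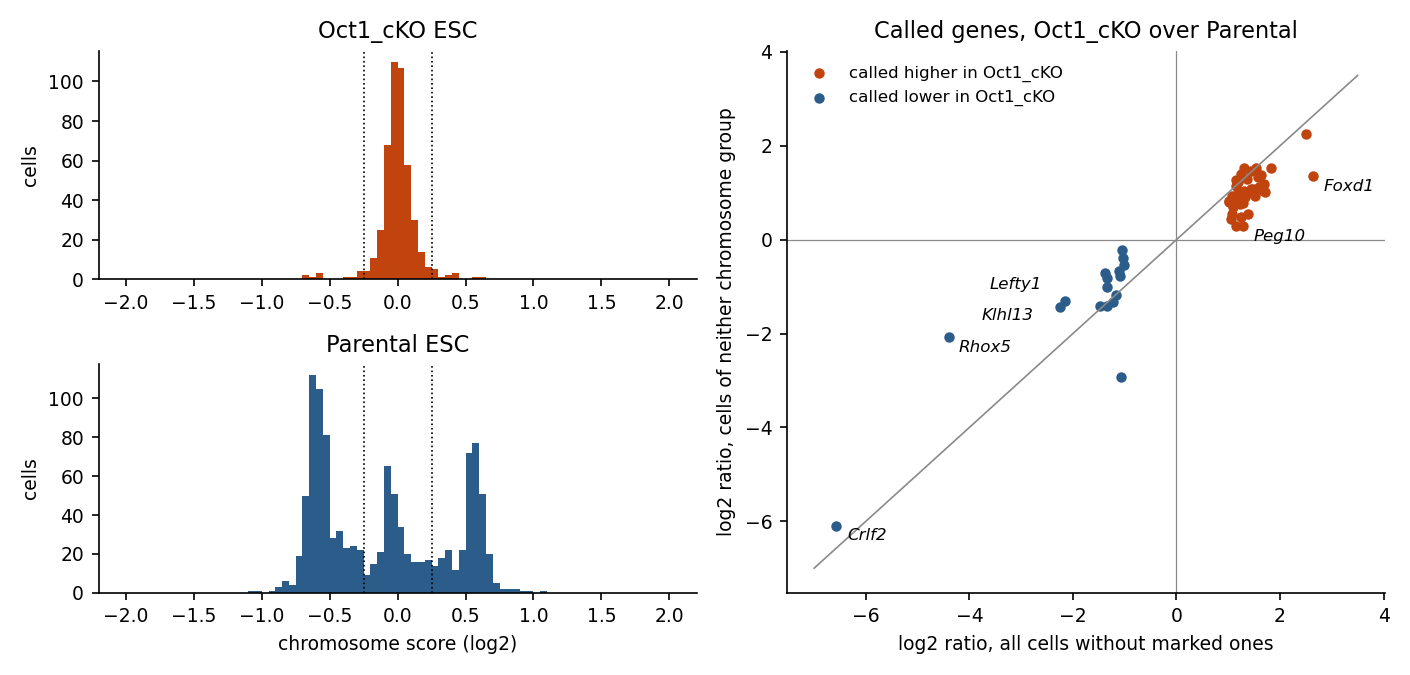
Chromosome score of each cell with at least 20000 UMIs (left, histograms of cells, dotted lines at the limits of 0.25 on either side of 0) and the log2 ratio of every called gene in cells of neither chromosome group against its ratio in all cells without fibroblast-marked ones (right, the line marks equality). On this score, which is centred on the median Oct1_cKO cell, the 458 Oct1_cKO cells form a single peak around 0. The 1098 Parental cells form 3, with 322 above, 264 between and 512 below the limits. Chromosomes outside the score are not shown.

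Pou2f1 itself (ENSMUSG00000026565, mm10 chromosome 1, 165865154 to 166002678, minus strand) was detected in both libraries. It measured 21.4 CPM in Oct1_cKO and 31.5 CPM in Parental cells, from 831 UMIs in Oct1_cKO and 2262 UMIs in Parental. The log2 ratio of −0.56 (−0.67 to −0.44) was short of 2-fold. A 5′ tag outside the removed part of the gene is counted whether or not that part is present, so the value checks neither the deletion nor the label. Of the other class II POU genes, Pou2f2 lay below the 5 CPM needed for a comparison. Pou2f3 (ENSMUSG00000032015, chromosome 9, 43123939 to 43210369, minus strand), a factor of tuft cells and keratinocytes, measured 21.5 CPM in Oct1_cKO and 3.81 CPM (3.38 to 4.29) in Parental cells. The log2 ratio was 2.49 (2.29 to 2.70), a 5.63-fold rise. Pou5f1, the gene of Oct4, measured 792 CPM in Oct1_cKO and 728 CPM in Parental cells, a log2 ratio of 0.12. Pou2af1, the octamer coactivator of B cells, had 0 UMIs in the Oct1_cKO and in the Parental cells.

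A gene was called different when its ratio was at least 2-fold and it reached 20 CPM in the higher library. Of 5284 genes that reached that level without the marked cells, 48 were called higher in Oct1_cKO (0.908%) and 17 lower (0.322%). The libraries were close otherwise: 93.3% of these genes lay within 1.5-fold, and the median log2 ratio was −0.02. Single values in brackets after a pair of levels are log2 ratios of Oct1_cKO over Parental. At the limit, Apoc1 with a log2 ratio of 1.02 was just inside and AY036118, at 0.998, just outside. On the lower side, Krt42 at −1.02 was inside and Ifitm1 at −0.98 outside. Over all kept cells 46 of 5340 genes were called higher (0.861%) and 70 lower (1.31%). Of the genes called higher, 37 were shared, which is 80.4% of the 46 and 77.1% of the 48. Of those called lower, 13 were shared, which is 18.6% of the 70 and 76.5% of the 17.

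**Figure D2:**
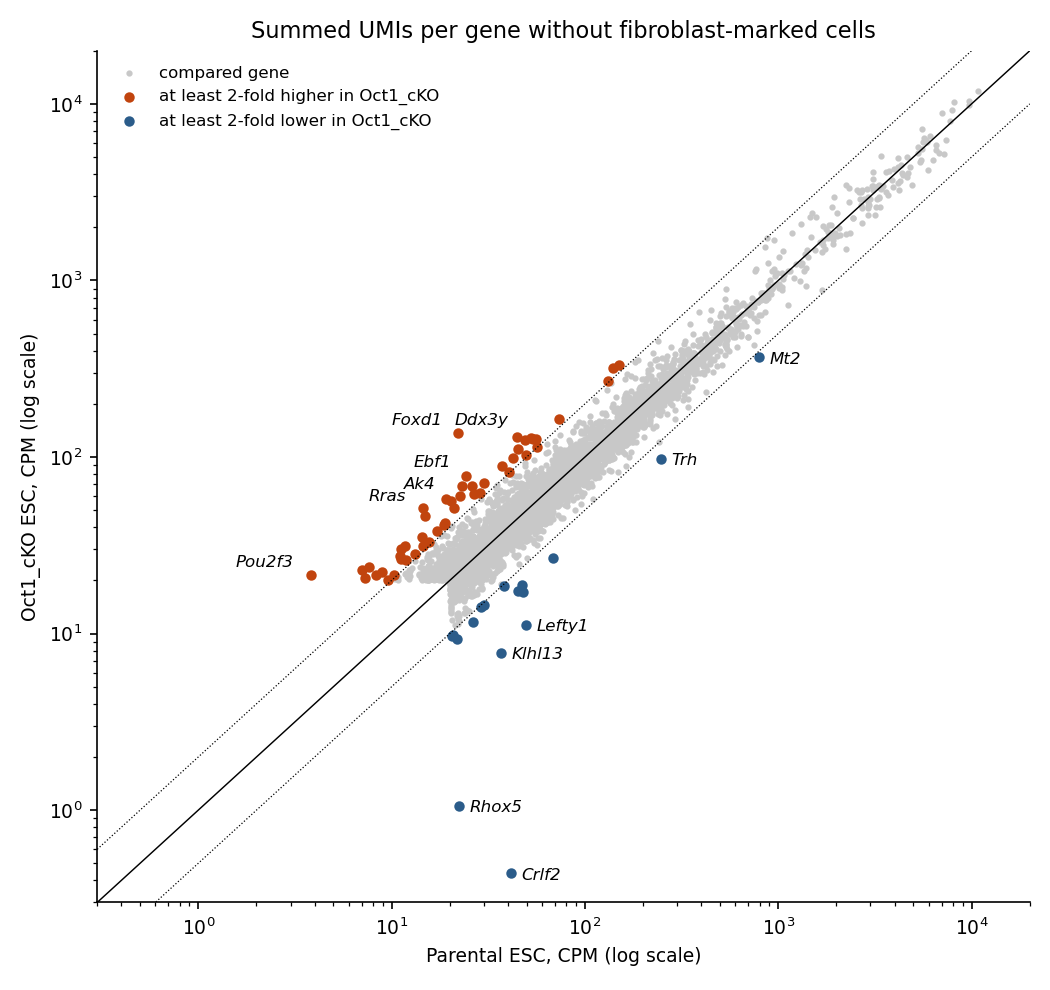
Summed CPM of each gene at 20 CPM or more in either library, without fibroblast-marked cells, in Oct1_cKO (vertical, log scale) against Parental ESC (horizontal, log scale). The solid line marks equality and the dotted lines 2-fold. Foxd1 (136 CPM in Oct1_cKO, 22.0 CPM in Parental) and Crlf2 (0.438 CPM in Oct1_cKO, 41.6 CPM in Parental) stand farthest from the line on either side.

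There were 57 genes called lower only with the marked cells present. Of them, 33 kept at least 5 CPM once the marked cells were removed, and their median log2 ratio was then −0.17. Of the fibroblast list, 15 of the 16 members compared were lower over all kept cells, with a median of −4.19. Without the marked cells 3 members could be compared, 1 of them lower, with a median of 0.04. Mgp, an inhibitor of calcification and one of the genes that set the mark, measured 12.8 CPM in Oct1_cKO and 502 CPM in Parental over all kept cells. Grem1, a secreted BMP antagonist that the mark did not use, measured 0.822 CPM in Oct1_cKO and 48.4 CPM in Parental over all kept cells. Without the marked cells Grem1 measured 0.258 CPM in Oct1_cKO and 0.794 CPM in Parental. Acta2, smooth muscle actin, measured 3.18 CPM in Oct1_cKO and 116 CPM in Parental over all kept cells, but 3.12 CPM in Oct1_cKO and 6.42 CPM in Parental once the marked cells were out. Some matrix RNA remained: at 10000 UMIs per cell, Mgp was found in 0.418% of the unmarked Oct1_cKO and 4.60% of the unmarked Parental cells, and its ratio was still −5.40, at 0.155 CPM in Oct1_cKO and 6.53 CPM in Parental.

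Other genes rose only in the comparison without the marked cells. S100a6, a calcium-binding protein, measured 129 CPM (126 to 133) in Oct1_cKO and 44.8 CPM (43.2 to 46.3) in Parental cells without the marked cells, a log2 ratio of 1.53. Over all kept cells the ratio was −1.87, and 95.2% of the marked Parental cells held S100a6 at 10000 UMIs. Anxa5, a phospholipid-binding annexin, had ratios of 1.57 without and 0.09 with the marked cells, and Cryab, a small heat shock protein, of 1.41 and −0.97. A second set of cells carried some of these genes. When cells with at least 500 CPM of the keratins Krt7, Krt8 and Krt18 were left out, an alternative added after the data were seen, the ratio was 0.44 for S100a6 and 0.08 for Cryab. Plaur, the urokinase receptor, had a ratio of 1.43 with the keratin-high cells and 0.42 without them. In all, 477 Oct1_cKO and 1223 Parental cells remained in that comparison, with 38 genes called higher and 16 lower.

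**Figure D3:**
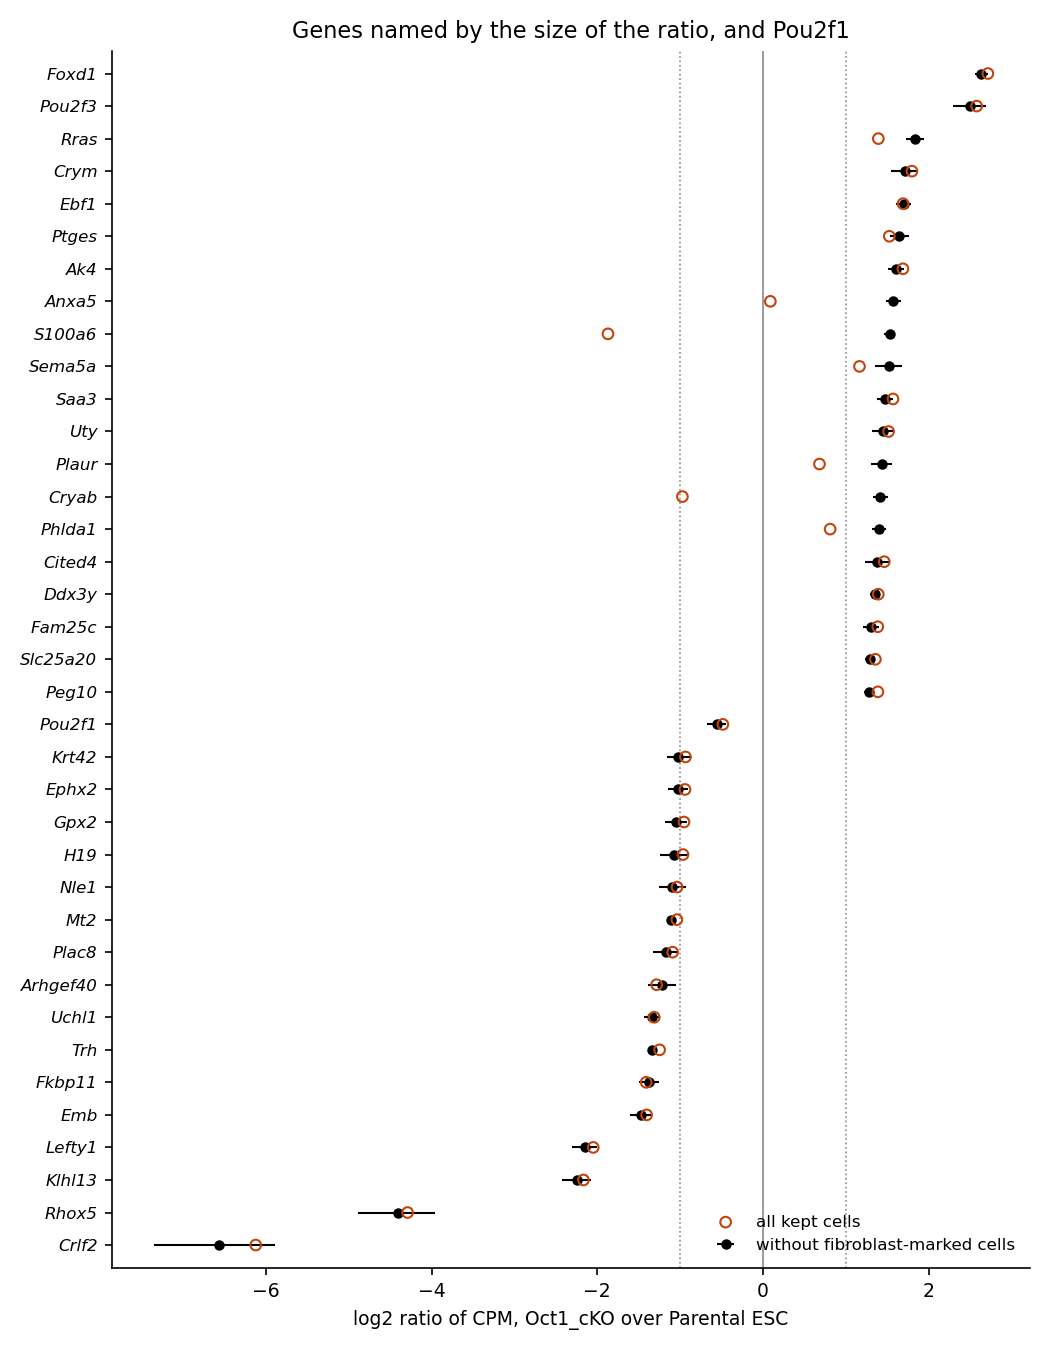
Log2 ratio of CPM, Oct1_cKO over Parental ESC, of the genes named by size and of Pou2f1. Filled points with 95% counting intervals are without fibroblast-marked cells, open points are all kept cells, and dotted lines mark 2-fold. The open and filled points part for S100a6 (−1.87 and 1.53), Cryab (−0.97 and 1.41) and Anxa5 (0.09 and 1.57), and lie close for Foxd1 and Crlf2.

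Foxd1 and Pou2f3 had the highest ratios of Oct1_cKO to Parental cells. Foxd1 (ENSMUSG00000078302, chromosome 13, 98354242 to 98359305, plus strand), a forkhead factor best known from kidney stroma, measured 136 CPM (133 to 140) in Oct1_cKO and 22.0 CPM (20.9 to 23.1) in Parental cells. Its log2 ratio was 2.63 (2.55 to 2.71), a 6.20-fold rise. At 10000 UMIs per cell, 50.7% (46.2 to 55.3) of Oct1_cKO and 11.7% (9.92 to 13.7) of Parental cells held a Foxd1 UMI. Of the fibroblast-marked cells of the Parental library, 1.92% held one. They give a measure of free RNA in that library only, not in Oct1_cKO. Pou2f3 was found in 16.7% of Oct1_cKO and 4.08% (3.01 to 5.39) of Parental cells. Ebf1 (ENSMUSG00000057098, chromosome 11, 44617317 to 45008091, plus strand), a regulator of B cells and mesenchyme, measured 78.5 CPM in Oct1_cKO and 24.2 CPM in Parental cells. The Ebf1 ratio was 1.69 (1.61 to 1.78), and 44.1% of Oct1_cKO and 18.8% of Parental cells held a UMI. The marked cells gave 20.2%, so for Ebf1, a gene of mesenchyme too, they set no background level. Cited4, a transcriptional coactivator, had a ratio of 1.38, and of 0.55 in cells of neither chromosome group.

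Of the other genes named for high ratios, Rras, a small GTPase related to Ras, measured 51.7 CPM in Oct1_cKO and 14.5 CPM in Parental cells (log2 ratio 1.83, 1.72 to 1.94). Without thinning it was found in 83.5% of Oct1_cKO and 46.7% of Parental cells. Ptges, which makes prostaglandin E, measured 46.6 CPM in Oct1_cKO and 14.9 CPM in Parental cells (1.64). Saa3, an acute-phase protein, measured 56.3 CPM in Oct1_cKO and 20.3 CPM in Parental cells (1.47). Ptges and Saa3 were 2 of the 3 members compared from the list of acute-phase and inflammation genes, and the third, Nfkbia, had a ratio of 0.13. Ak4, a mitochondrial adenylate kinase, measured 57.8 CPM in Oct1_cKO, 3.03-fold above Parental cells (1.60). Slc25a20, the carnitine carrier of the inner mitochondrial membrane, measured 111 CPM in Oct1_cKO and 45.3 CPM in Parental cells (1.29), and had a ratio of 0.78 within neither chromosome group. The 20 genes were ranked with 1 CPM added to both levels, unnamed genes left out, so the order is not that of the plain ratios. The remaining ones of the 20 were Crym, a thyroid hormone-binding crystallin (1.71), Sema5a, a guidance molecule (1.51), Phlda1 (1.39), Fam25c (1.30), the Y-linked Uty and Ddx3y and the imprinted Peg10. In cells of neither chromosome group the ratio was 1.01 for Crym and 0.93 for Sema5a, which was not called there.

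The deepest fall was that of Crlf2 (ENSMUSG00000033467, chromosome 5, 109554709 to 109558993, minus strand), a chain of the receptor for the cytokine TSLP. It had 17 UMIs in Oct1_cKO and 2985 in Parental cells, or 0.438 CPM (0.255 to 0.701) in Oct1_cKO and 41.6 CPM (40.1 to 43.1) in Parental cells. The log2 ratio was −6.57 (−7.35 to −5.89), a 94.9-fold difference. At 10000 UMIs per cell, 2 Oct1_cKO cells (0.418%) and 357 Parental cells (31.0%) held a UMI. Without thinning the shares were 2.46% in Oct1_cKO and 68.3% in Parental cells. The fibroblast-marked cells held it as well, in 46.2% of cases at 10000 UMIs. Within the cells of neither chromosome group it measured 0.442 CPM in Oct1_cKO and 30.3 CPM in Parental cells, a ratio of −6.10 (−6.92 to −5.39). Jak1, a kinase through which the TSLP receptor signals, measured 41.8 CPM in Oct1_cKO and 26.4 CPM in Parental cells (0.66).

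Of the other genes named for low ratios, Rhox5, an X-linked homeobox gene with close relatives in its cluster that 5′ tags may not separate, measured 1.06 CPM in Oct1_cKO and 22.3 CPM in Parental cells (−4.40, −4.89 to −3.96). Within neither chromosome group Rhox5 was below 20 CPM in both, at 0.939 CPM in Oct1_cKO and 3.96 CPM in Parental cells. Klhl13, an X-linked adaptor of a ubiquitin ligase, measured 7.80 CPM in Oct1_cKO and 37.0 CPM in Parental cells (−2.25). Trh, the precursor of thyrotropin-releasing hormone and an abundant transcript of Parental cells, measured 97.4 CPM in Oct1_cKO and 247 CPM in Parental cells (−1.34), and was detected in 44.5% of thinned Oct1_cKO and 65.5% of thinned Parental cells. Further falls were those of Emb, a membrane glycoprotein (−1.48), Fkbp11, a prolyl isomerase of the endoplasmic reticulum (−1.38), Uchl1, a deubiquitinase (−1.34), Arhgef40 (−1.22), Plac8 (−1.18) and Nle1, a ribosome biogenesis factor (−1.09). Gpx2, a glutathione peroxidase, Ephx2, an epoxide hydrolase, and the keratin Krt42 lay between −1.05 and −1.02, at the edge of the limit. Several of these falls were short of 2-fold within neither chromosome group. The ratios there were −0.998 for Trh, −0.82 for Uchl1, −0.77 for Nle1, −0.71 for Fkbp11, −0.54 for Krt42, −0.39 for Ephx2 and −0.22 for Gpx2.

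**Figure D4:**
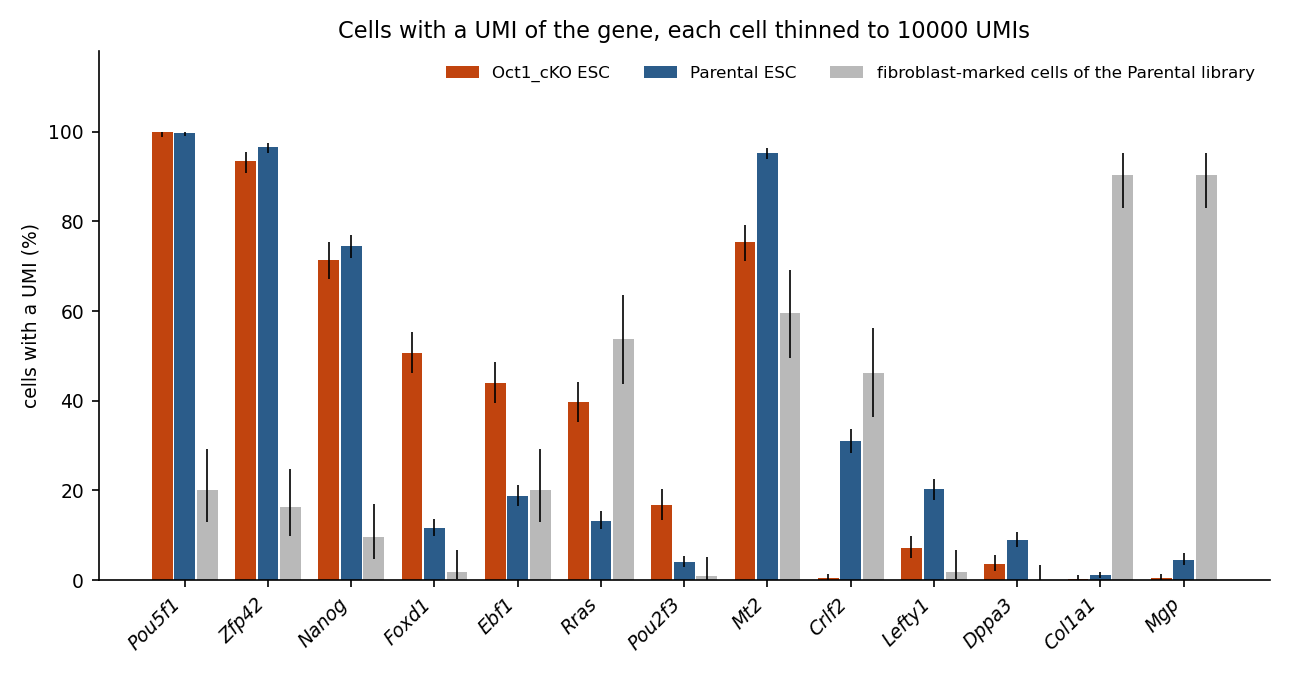
Share of cells with at least 1 UMI of each gene after every cell was thinned to 10000 UMIs, in 479 Oct1_cKO cells, 1152 Parental cells and 104 fibroblast-marked cells of the Parental library. Bars start at 0 and lines are exact 95% binomial intervals. Foxd1 was found in 50.7% of Oct1_cKO and 11.7% of Parental cells and Crlf2 in 0.418% of Oct1_cKO and 31.0% of Parental cells, while Pou5f1, Zfp42 and Nanog were at similar heights in both.

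The pluripotency network was little different. For the lists that follow, a member was compared when it reached 5 CPM in the higher library. At that level 1.65% of 8993 genes were called higher and 0.734% lower, with a median log2 ratio of 0.01. Of 12 general pluripotency genes 0 were called in either direction, with a median of −0.04 and a range from −0.38 (Zfp296) to 0.12 (Pou5f1). Of 13 naive genes, those of the ground state of ESC, 0 were higher and 1 was lower, with a median of 0.01. The lower member was Dppa3, a maternal-effect factor found in a fraction of ESC, at 3.17 CPM (2.63 to 3.78) in Oct1_cKO and 14.6 CPM (13.8 to 15.6) in Parental cells. Dppa3 had a ratio of −2.21, and 3.55% (2.08 to 5.62) of Oct1_cKO and 9.03% (7.44 to 10.8) of Parental cells held a UMI. At the other end Tbx3, a T-box factor, measured 157 CPM in Oct1_cKO and 93.0 CPM in Parental cells (0.75). Nr5a2, a nuclear receptor that acts upstream of Pou5f1, measured 18.2 CPM in Oct1_cKO and 29.4 CPM in Parental cells (−0.69). Of 8 primed epiblast genes, which mark pluripotency after implantation, 0 were called, and the median was −0.29. Of the shares of cells at 10000 UMIs, Nanog stood at 71.4% in Oct1_cKO and 74.4% in Parental, and Zfp42 at 93.3% in Oct1_cKO and 96.5% in Parental.

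**Figure D5:**
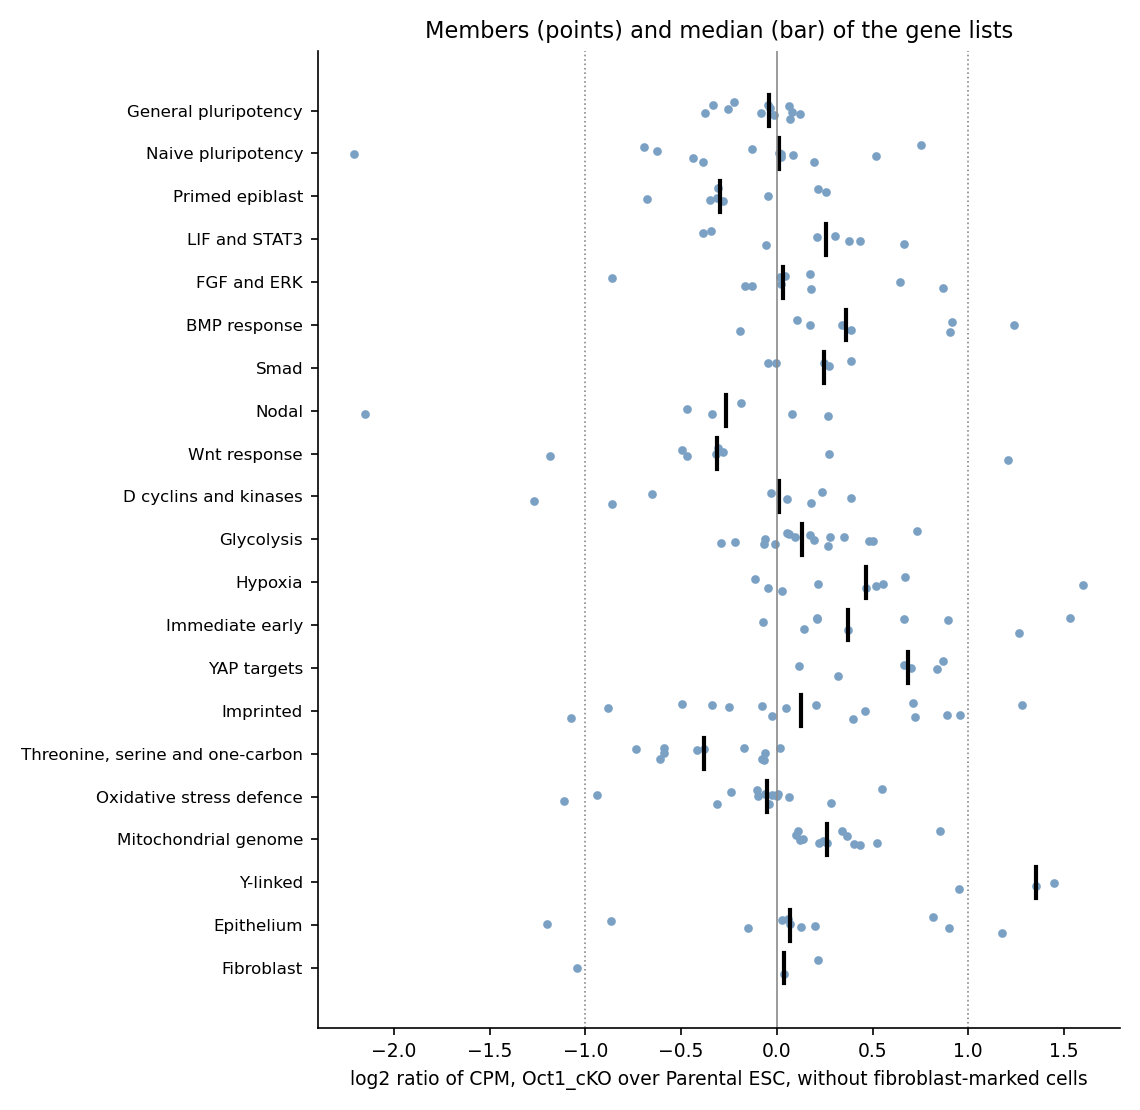
Log2 ratio of CPM, Oct1_cKO over Parental ESC without fibroblast-marked cells, for members at 5 CPM or more in either library (points) and the median (bar) of 21 gene lists. Dotted lines mark 2-fold. General pluripotency genes lie within 2-fold around a median of −0.04, the BMP response list has a median of 0.36 and the Y-linked list of 1.35, and Dppa3 (−2.21) and Lefty1 (−2.15) are the farthest points to the left.

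Genes that respond to BMP were mostly higher without passing 2-fold. Of 8 members compared 7 had a ratio above 0, 1 was called higher and 0 lower, with a median of 0.36. The called member was Id2, at 126 CPM (123 to 130) in Oct1_cKO and 53.6 CPM (52.0 to 55.4) in Parental cells (1.24, 1.18 to 1.30). The Id proteins block basic helix-loop-helix factors and are classical targets of BMP through Smad1 and Smad5. Id1 measured 345 CPM in Oct1_cKO and 182 CPM in Parental cells (0.92), and Id3 353 CPM in Oct1_cKO and 189 CPM in Parental cells (0.90). Summed per cell at 10000 UMIs, the 3 Id genes had a median of 5 UMIs in Oct1_cKO and 3 in Parental cells. Cells with none made up 5.85% (3.92 to 8.34) of Oct1_cKO and 15.4% (13.3 to 17.6) of Parental cells. Of 5 Smad genes 0 were called, with ratios from −0.05 (Smad4) to 0.39 (Smad7). The Id levels moved with the chromosome groups. Among cells of neither group Id1 measured 346 CPM in Oct1_cKO and 245 CPM in Parental. There Id2 measured 127 CPM in Oct1_cKO and 73.5 CPM in Parental, and Id3 357 CPM in Oct1_cKO and 257 CPM in Parental. The ratios there were 0.50 for Id1, 0.79 for Id2 and 0.48 for Id3, so Id2 was no longer called. In Parental cells with chromosome 11 high, Id1 stood at 134 and Id3 at 124 CPM. The part of the chromosome groups in the Id difference was not tested.

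Of the 6 Nodal pathway genes compared, 0 were higher and 1 was lower. Lefty1, a secreted antagonist of Nodal, fell to 11.2 CPM (10.1 to 12.3) in Oct1_cKO, against 49.6 CPM (48.0 to 51.3) in Parental cells (−2.15, −2.30 to −2.01). It was found in 7.10% (4.97 to 9.78) of Oct1_cKO and 20.2% (17.9 to 22.7) of Parental cells. Its neighbour and paralog Lefty2 measured 83.4 CPM in Oct1_cKO and 106 CPM in Parental cells (−0.34), and Nodal itself 70.1 CPM in Oct1_cKO and 58.3 CPM in Parental cells (0.27). Restricted to neither chromosome group, Lefty1 measured 11.5 CPM in Oct1_cKO and 28.6 CPM in Parental cells, a ratio of −1.31. There the direction turned for Lefty2, with 84.9 CPM in Oct1_cKO and 77.8 CPM in Parental cells (0.13). Of 8 Wnt response genes 1 was higher and 1 lower, with a median of −0.31. The higher one was Dkk1, a secreted Wnt antagonist, at 11.6 CPM in Oct1_cKO and 5.01 CPM in Parental cells (1.21). The lower one was T, the primitive streak factor, at 2.29 CPM in Oct1_cKO and 5.21 CPM in Parental cells (−1.18). The Wnt median within neither chromosome group was −0.05, Dkk1 was short of the limit (0.98) and T was at −1.22. Of 10 genes of FGF and ERK signalling and 8 of LIF and STAT3 signalling, 0 were called. Among them Ccnd1, cyclin D1, measured 82.1 CPM in Oct1_cKO and 149 CPM in Parental cells (−0.86).

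The cyclin list held 1 call. Ccnd2, cyclin D2, measured 7.49 CPM in Oct1_cKO and 18.1 CPM in Parental cells (−1.27), and the other 7 of the 8 D cyclins, kinases and inhibitors were not called. Over all kept cells the Ccnd2 ratio was −2.80, with 9.14 CPM in Oct1_cKO and 63.8 CPM in Parental cells, and 94.2% of the marked Parental cells held it at 10000 UMIs. Of 5 Myc family members 0 were called, and the lowest was Mycn at 13.5 CPM in Oct1_cKO and 25.1 CPM in Parental cells (−0.90).

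Metallothioneins are small proteins that bind zinc and copper. Mt2 fell to 366 CPM (360 to 372) in Oct1_cKO, against 792 CPM (785 to 798) in Parental cells (−1.11, −1.14 to −1.09). Mt1 measured 881 CPM in Oct1_cKO and 1687 CPM in Parental cells (−0.94). Summed at 10000 UMIs per cell, Mt1 and Mt2 had a median of 7 UMIs in Oct1_cKO and 22 in Parental cells, and cells with none made up 9.39% of Oct1_cKO and 0.781% of Parental cells. Both genes lie on chromosome 8. Within neither chromosome group Mt2 measured 348 CPM in Oct1_cKO and 555 CPM in Parental cells (−0.67), below the limit. In cells with a chromosome score above 0.25, Mt2 reached 1455 CPM in the 322 Parental and 1003 CPM in the 13 Oct1_cKO cells. These sets were unlike in their median shares, given in log2 units relative to the median Oct1_cKO cell. In Parental the shares were 0.51 for chromosome 1, 0.45 for 6, 0.58 for 8 and −0.05 for 11. In Oct1_cKO they were −0.02 for chromosome 1, 0.14 for 6, 0.11 for 8 and −0.24 for 11. The part of the chromosome groups in the Mt2 difference was not tested. Of the 14 genes of oxidative stress defence compared, a list that holds both metallothioneins, 0 were higher and Mt2 was the 1 lower. Sod1, a superoxide dismutase, had a ratio of −0.31 and Srxn1, which repairs peroxiredoxins, of 0.55.

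Of 9 hypoxia genes 1 was higher, Ak4 described above, and 7 had a ratio above 0, with a median of 0.47. That median was 0.13 within neither chromosome group. Of 16 glycolysis genes 0 were called. Eno1, an enolase, had the highest ratio of them at 0.73, with 897 CPM in Oct1_cKO and 540 CPM in Parental cells. Of 11 enzymes of threonine, serine and one-carbon metabolism, on which mouse ESC depend, 0 were called, while 10 had a ratio below 0 and the median was −0.38. The median of these enzymes was −0.04 within neither chromosome group. All 13 protein-coding genes of the mitochondrial genome had a ratio above 0, with 0 called and a median of 0.26. The mitochondrial share of UMIs, often used as a sign of cell quality, counts the same transcripts and is not a second observation. Its median was 6.11% in Oct1_cKO and 5.34% in Parental cells. Among cells with at least 2000 genes and no more than 5% mitochondrial UMIs, a filter on that same share, the list median was −0.06. The part of cell quality was not tested.

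Some smaller lists leaned upwards. Of 9 immediate early genes, which answer growth factors and stress within minutes, 2 were higher and 0 lower, with a median of 0.37. They were Fos, at 8.01 CPM in Oct1_cKO and 2.77 CPM in Parental cells (1.53), and Zfp36, at 6.33 CPM in Oct1_cKO and 2.63 CPM in Parental cells (1.27). Within neither chromosome group 0 of the 9 were called. All 6 YAP target and pathway genes had ratios above 0, with 0 called and a median of 0.68, or 0.31 within neither chromosome group. Over all kept cells 8 were compared, of which 3 were above 0 and 1 was called lower, with a median of −0.19. Among them Cyr61 measured 30.9 CPM in Oct1_cKO and 16.9 CPM in Parental cells (0.87), but −0.08 over all kept cells. Of 16 imprinted genes 1 was higher and 1 lower, with a median of 0.13. Peg10, derived from a retrotransposon and needed in the placenta, measured 128 CPM in Oct1_cKO and 52.9 CPM in Parental cells (1.28). Within neither chromosome group Peg10 measured 123 CPM in Oct1_cKO and 101 CPM in Parental cells (0.28). H19, an imprinted RNA, measured 9.73 CPM in Oct1_cKO and 20.5 CPM in Parental cells (−1.07). It was confined to few cells, with a UMI in 2.09% of Oct1_cKO and 3.21% of Parental cells at 10000 UMIs, and within neither chromosome group its ratio was −2.92. The H19 ratio was 0.90 among cells with at least 2000 genes and no more than 5% mitochondrial UMIs. The interferon-response list leaned downwards. Of 4 genes compared 0 were called, all 4 had a ratio below 0, and the median was −0.51, or −0.42 within neither chromosome group. Ifitm1 measured 122 CPM in Oct1_cKO and 241 CPM in Parental cells (−0.98), and its close relative Ifitm3 measured 165 CPM in Oct1_cKO and 293 CPM in Parental cells (−0.83). Reads of these copies may have been split, so both values are uncertain.

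Of 3 genes of the Y chromosome that were compared, 2 rose in Oct1_cKO, with a median of 1.35. Ddx3y, an RNA helicase, measured 126 CPM (122 to 129) in Oct1_cKO and 49.1 CPM (47.5 to 50.8) in Parental cells (1.35). Uty, a histone demethylase relative, measured 30.3 CPM in Oct1_cKO and 11.1 CPM in Parental cells (1.45), and Eif2s3y 66.8 CPM in Oct1_cKO and 34.5 CPM in Parental cells (0.95). At 10000 UMIs per cell, 18.8% (15.4 to 22.6) of Oct1_cKO and 49.9% (47.0 to 52.8) of Parental cells held no UMI of these genes or Kdm5d. Without thinning, cells with none of the 4 genes were 1.39% of the Oct1_cKO cells of neither chromosome group. In Parental they were 53.1% of the cells with chromosomes 1, 6 and 8 high, 23.9% of the cells of neither group and 14.5% of those with chromosome 11 high. The Ddx3y ratio in cells of neither group was 1.29, with 126 CPM in Oct1_cKO and 51.7 CPM in Parental cells.

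Some ESC of both libraries carried epithelial genes. Of 11 members of the epithelium list compared 1 was higher and 1 lower, with a median of 0.07. Tfap2a, a factor of surface ectoderm, measured 8.70 CPM in Oct1_cKO and 3.86 CPM in Parental cells (1.17), and the tight junction gene Cldn6 measured 2.29 CPM in Oct1_cKO and 5.26 CPM in Parental cells (−1.20). Tfap2a had a ratio of 0.62 within neither chromosome group and was not called there. Krt8, a keratin of simple epithelia, measured 212 CPM in Oct1_cKO and 113 CPM in Parental cells (0.90). At 10000 UMIs per cell, 11.5% (8.77 to 14.7) of Oct1_cKO and 4.08% (3.01 to 5.39) of Parental cells held at least 5 UMIs of Krt7, Krt8 and Krt18 together, while 66.0% of Oct1_cKO and 73.3% of Parental cells held none. At least 3 of 7 epithelial markers were found in 10.6% (8.03 to 13.8) of Oct1_cKO and 5.03% (3.84 to 6.46) of Parental cells. Within neither chromosome group the order turned for Krt8, with 198 CPM in Oct1_cKO and 219 CPM in Parental cells (−0.15). Krt18, named after its values were seen, was called lower there, with 144 CPM in Oct1_cKO and 306 CPM in Parental cells (−1.09), against 0.20 in all cells without marked ones. Cells that held at least 3 markers of another cell type were few or absent, a rule that does not speak of single markers. The search covered the 479 unmarked Oct1_cKO and 1152 unmarked Parental cells deep enough for thinning. At this depth no such cell held at least 3 of 4 markers of mesoderm, of neural cells or of blood. Nor did any hold at least 3 of 6 markers of primitive endoderm, or 3 of 5 of cells like those of the early cleavage embryo. Taking 3 cells as what a count of 0 allows, the share of cells in which so many markers are detected could be up to 0.626% in Oct1_cKO and 0.260% in Parental. At least 3 of 6 trophoblast markers were found in 0.835% of Oct1_cKO and 0.608% of Parental cells.

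The chromosomes of the score also differed in their medians over genes. The median log2 ratio was −0.29 over 463 genes of chromosome 11, of which 13.4% lay above 0. It was −0.16 for chromosome 8, −0.15 for chromosome 6, −0.13 for chromosome 16 and −0.12 for chromosome 1, and the highest autosomal median was 0.11, for chromosome 2. Compared only in cells of neither chromosome group, 433 Oct1_cKO and 264 Parental, 25 of 5238 genes were called higher (0.477%) and 11 lower (0.21%). Of the 25 higher 23, and of the 11 lower 8, had also been called in all cells without marked ones. The calls kept were thus 23 of the 48 higher and 8 of the 17 lower. Of 40 of the named genes with at least a 2-fold ratio in that comparison, all 40 had the same sign here and 26 were past 2-fold. These genes were chosen in cells that include the ones used here, so the shared sign is not an independent check. Foxd1 was called there with 140 CPM in Oct1_cKO and 55.0 CPM in Parental cells (1.35, 1.25 to 1.45), a smaller ratio than the 2.63 in all cells without marked ones. Pou2f3 (2.26), Rras (1.53), S100a6 (1.53), Ebf1 (1.19), Ak4 (1.12), Crlf2, Klhl13 (−1.44) and Emb (−1.41) were called there as well. The score was built from genes on chromosomes 1, 6, 8 and 11, so genes on them, such as Lefty1, Mt2, Peg10, Trh, Dppa3 and Ebf1, contributed to choosing the cells.

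The later libraries, which the ESC comparison did not use, show how the called genes stood after differentiation had begun. Over all genes, 12 of 5148 were called higher in Oct1_cKO at day 3 (0.233%) and 14 lower (0.272%). At day 6 the calls were 314 of 6173 higher (5.09%) and 254 lower (4.11%). Of the 48 genes higher in ESC, 16 reached 20 CPM at day 3, and 15 of them had a ratio above 0, against 40.3% of all genes at that day. The 4 that were called again were Rras (68.7 CPM in Oct1_cKO, 18.2 CPM in Parental), Ebf1, Ddx3y and Uty. At day 6, 30 could be compared, 26 were above 0, against 48.6% of all genes, and 17 were called. These 17 included S100a6, Anxa5, Cryab, Peg10, Plaur, Ddx3y and Uty, and 2 genes, Ebf1 and Syne2, were called the other way. Foxd1 was at 1.03 CPM in both genotypes at day 3.

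Of the 17 genes lower in ESC, 10 were compared at day 3, of which 9 were below 0, against 59.7% of all genes. Mt2 was called again, with 174 CPM in Oct1_cKO and 369 CPM in Parental cells. At day 6, 10 were compared and 6 were below 0, against 51.4% of all genes. Crlf2, with 5.40 CPM in Oct1_cKO and 26.3 CPM in Parental cells (−2.28), and Uchl1 (−1.11) were called again. At day 3 Crlf2 had measured 1.09 CPM in Oct1_cKO and 16.3 CPM in Parental cells (−3.90), under the 20 CPM limit. Pou2f3 stood at 14.2 CPM in Oct1_cKO and 1.62 CPM in Parental cells at day 3 (3.13) and below 1 CPM in both at day 6. Pou2f1 was called lower at day 3, with 12.6 CPM in Oct1_cKO and 28.3 CPM in Parental cells (−1.17). At day 6 its log2 ratio was −0.95, short of 2-fold. These later values cover all kept cells, of which 0.585% of Oct1_cKO and 0.527% of Parental were fibroblast-marked at day 3, and 10.8% of Oct1_cKO and 15.8% of Parental at day 6.

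Oct1 binds the octamer ATGCAAAT, which was searched for in the promoters of the called genes. Sequences of 300 bases, from 250 before to 50 after the start of a gene, came from RefSeq on build GRCm38.p6. The octamer or its reverse ATTTGCAT was found in 1.97% of the 27025 genes of that table. It was found in 52 of 4244 (1.23%) of the genes compared that had an entry. Of 38 called higher with an entry it was found in 1, and of 13 called lower in 0. The exception was Wwc2, a scaffold protein of the Hippo pathway, named here because it carried the motif. Wwc2 measured 127 CPM in Oct1_cKO and 56.1 CPM in Parental cells (1.18), and 0.95 in cells of neither chromosome group. Its octamer, in capitals, begins 17 bases before the start site (minus strand of chromosome 8, chr8:47990495-47990794). The Crlf2 promoter, the one of the deepest fall, is shown beside it in lower case throughout, since it held no octamer (minus strand, chr5:109558944-109559243).
Wwc2: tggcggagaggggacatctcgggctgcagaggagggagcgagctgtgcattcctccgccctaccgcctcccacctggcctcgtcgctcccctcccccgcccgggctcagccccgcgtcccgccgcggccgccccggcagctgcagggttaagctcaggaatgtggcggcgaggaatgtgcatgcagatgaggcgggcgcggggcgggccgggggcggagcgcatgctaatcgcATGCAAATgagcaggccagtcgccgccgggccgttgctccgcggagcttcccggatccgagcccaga
Crlf2: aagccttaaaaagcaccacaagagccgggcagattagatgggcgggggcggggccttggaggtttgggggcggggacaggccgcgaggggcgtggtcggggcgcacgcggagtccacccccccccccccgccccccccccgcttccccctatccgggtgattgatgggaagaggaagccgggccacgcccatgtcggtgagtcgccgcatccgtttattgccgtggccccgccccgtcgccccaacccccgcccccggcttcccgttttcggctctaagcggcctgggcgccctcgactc

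The metallothionein promoters are shown for the metal response element, the site through which metal ions raise Mt1 and Mt2. Of the pair Mt2 fell in Oct1_cKO (−1.11) and Mt1 was short of the limit (−0.94), and within neither chromosome group both were short of it, at −0.67 for Mt2 and −0.55 for Mt1. Its core was searched as TGCACNC or TGCGCNC on both strands, and is in capitals, with overlapping matches in 1 run of capitals. Mt2 held 4 matches (plus strand, chr8:94172368-94172667) and Mt1 held 3 (plus strand, chr8:94178839-94179138). Of the 27025 genes, 28.2% held at least 1 match in a window of this length, 2.27% at least 3 and 0.588% at least 4. A match describes letters only, and neither binding by Oct1 nor metal levels were measured here.
Mt2: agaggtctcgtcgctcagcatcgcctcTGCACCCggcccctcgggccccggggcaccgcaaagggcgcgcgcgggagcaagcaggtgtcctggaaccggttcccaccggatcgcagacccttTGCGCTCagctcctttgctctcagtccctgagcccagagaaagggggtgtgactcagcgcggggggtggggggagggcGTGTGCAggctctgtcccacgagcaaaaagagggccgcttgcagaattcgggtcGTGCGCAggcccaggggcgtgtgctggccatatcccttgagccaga
Mt1: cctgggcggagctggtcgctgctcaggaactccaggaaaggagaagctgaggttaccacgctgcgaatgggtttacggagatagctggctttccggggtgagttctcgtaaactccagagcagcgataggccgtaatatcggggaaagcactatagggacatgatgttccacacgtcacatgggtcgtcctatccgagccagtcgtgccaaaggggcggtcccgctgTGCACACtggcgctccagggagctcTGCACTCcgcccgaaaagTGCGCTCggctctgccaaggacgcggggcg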

How the data were processed

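Single-cell 5′ libraries of Oct1_cKO and Parental ESC were compared, 1 library for each genotype. The deposited matrices hold UMI counts per gene and cell, made with Cell Ranger 3.1.0 on mm10, per the file headers and the submitters' processing notes. No further scaling was found in them: the values are whole counts.

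Barcodes were filtered as stated in the report, and doublets were left in. Scrublet marked 3 Oct1_cKO barcodes (0.566%) and 7 Parental barcodes (0.501%). UMIs were summed over cells and scaled to CPM. Poisson intervals for CPM, exact conditional binomial intervals for ratios and exact Clopper-Pearson intervals for shares have a level of 95% and cover counting error only. For shares, cells were thinned to 10000 UMIs. That left out 49 Oct1_cKO and 125 Parental shallower cells.

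Named genes were Pou2f1, the 20 highest and up to 20 lowest ratios (with 1 CPM added to both levels, unnamed, mitochondrial and ribosomal protein genes left out) past 2-fold and 20 CPM with UMIs in at least 5% of cells, the 12 lowest over all kept cells, and up to 3 members of each list with the largest ratios. Nanog, Zfp42, Pou2f2, Smad4, Nodal, Sod1, Krt18, Wwc2 and Syne2, among others in the text, fall outside that rule and were named after their values were seen. A gene that the rule names is counted in the totals but not reported here. The members and lists were chosen with earlier results of these data known. Alternatives covered the barcode filter, doublets, TMM (edgeR 4.0.16, R 4.3.3) and median-of-ratios scaling, equal weight per cell, thinning, the library total, the CPM floor, the fold limit and the fibroblast rule. The chromosome groups, the limit of 20000 UMIs and the keratin rule were added after the data were seen. The ratio and its interval were run on counts simulated with counting error alone, which cannot speak of differences between cultures or clones. Python 3.11.15, numpy 2.4.6, pandas 2.3.3, scipy 1.17.1 and scanpy 1.11.5 were used.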

Additional observations from a re-analysis of the deposited data

Results flagged for a closer look

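For 2 genes named here the ratio of Oct1_cKO to Parental cells had opposite signs in ESC and at day 6, each past 2-fold, with 1 library per genotype and stage. ESC values are without fibroblast-marked cells and day 6 values cover all kept cells. Ebf1 was higher in Oct1_cKO ESC (1.69) and lower at day 6, with 9.42 CPM in Oct1_cKO and 21.0 CPM in Parental cells, a log2 ratio of −1.16. Syne2, a protein that ties the nucleus to the cytoskeleton, measured 82.4 CPM in Oct1_cKO and 40.5 CPM in Parental ESC (1.02), with a ratio of 0.80 in cells of neither chromosome group. At day 6 Syne2 was lower in Oct1_cKO, with a ratio of −1.02. The difference between the stages was not tested for either gene.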

How the results depend on the processing

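No paired analysis was possible because each group held 1 library, and leaving out a library was not possible for the same reason. Over all kept cells, the count of genes at least 2-fold higher in Oct1_cKO was 46 and that of genes lower was 70. The counts of higher and lower genes were 121 and 42 under a stricter filter (cells of 2000 or more genes, mitochondrial share of 5% or less), 129 and 245 with a floor of 5 CPM, 25 and 27 with a floor of 50 CPM, and 186 and 175 with a fold limit of 1.5. Without fibroblast-marked cells, 48 were higher and 17 lower. Those counts were 135 and 37 under that filter, 148 and 66 at 5 CPM, 27 and 3 at 50 CPM, 226 and 127 at 1.5-fold, and 25 and 11 in cells of neither chromosome group. The lower count was also 26 with totals that left out mitochondrial and ribosomal protein genes, and 49 when all 6 fibroblast genes were needed for the mark. The stricter filter kept 86 Oct1_cKO cells. H19 had a ratio of 0.90 under it, against −1.07 in the comparison without marked cells; the cause was not tested. Of 40 of the named genes past 2-fold, 14 moved by over 1.5 times under it. Among them S100a6 was at 3.28, Cryab at 3.42, Plaur at 2.51, Arhgef40 at −2.89 and Rhox5 at −6.52. Krt8, which was not called, was at 2.01, and the epithelium median was 0.99. Of the 40, 37 stayed past 2-fold and 39 kept their sign under that filter. The numbers past 2-fold were 26 in cells of neither chromosome group, 34 without keratin-high cells, 37 with thinned cells, 37 with equal weight per cell (S100a6 at 0.62, Cryab at 0.55) and 40 with TMM scaling. In each of these all 40 kept their sign, though the 40 were chosen in the same cells, so this is not an independent check. Since each group is 1 library, differences between cultures, clones and genotypes cannot be told apart, at any depth.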

Other observations

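Several other gene lists had medians close to equality without fibroblast-marked cells. Of 14 S phase genes and 12 mitosis genes 0 were called, with medians of −0.14 for S phase and 0.01 for mitosis. Of 14 Polycomb genes, which silence developmental genes through histone marks, 0 were called and the median was −0.06. Of 8 genes of DNA methylation 0 were called, with a median of −0.02. Of 91 nuclear genes of oxidative phosphorylation 1 was higher, with a median of −0.02. It was Ndufa4l2, a subunit relative known as a hypoxia target, at 8.45 CPM in Oct1_cKO and 1.70 CPM in Parental cells (2.31). Of 94 ribosomal protein genes 1 was higher and 2 were lower, with a median of −0.02. Of 24 clustered histone genes outside the H2B group 1 was higher, Hist1h2ap, at 331 CPM in Oct1_cKO and 149 CPM in Parental cells (1.15), a copy whose reads near-identical genes may share. Of 9 p53 targets and 9 genes of the integrated stress response 0 were called, with medians of 0.12 for both lists.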
